A study of Mus musculus with 8 samples.

Results

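Bone morphogenetic protein (BMP) signalling and its Id target genes were examined in 8 mouse neuroblastoma-type tumours grown from N-Myc transduced neural crest cells. The set holds 10 genes chosen by name for their place in the pathway: the ligands Bmp2, Bmp4 and Bmp7, the receptors Bmpr1a and Bmpr2, the targets Id1, Id2, Id3 and Id4, and the inhibitor Chrdl1. These are 10 of 22180 genes with a probe set of their own, and each member was read from the 1 probe set that carries its symbol alone. RNA was measured on Affymetrix arrays, 1 array per tumour, and values are log2 levels. The tumours were primary and subcutaneous. The neural crest cells were designated N-Myc; p53mixed, a mixture of p53+/- and p53-/- cells. About 10000 cells per injection were placed under the skin 48 hours after infection with N-Myc, and tumours were removed after about 50 days. Hosts were nude mice, which lack thymus-derived T cells but keep myeloid and NK cells, or C57Bl/6 mice. Which host or which p53 genotype belongs to which tumour, the promoter driving N-Myc, and the age of the hosts are not stated by the labels. All 8 tumours carry N-Myc and share 1 label, so they form 1 group (n = 8) with no untransduced or normal tissue beside it. No label says that the tumours came from separate animals or cultures, so p-values measure only the spread between these samples, which may be technical.

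BMPs are secreted ligands that bring together type I receptors such as Bmpr1a and type II receptors such as Bmpr2, which then phosphorylate Smad1, Smad5 and Smad9. Together with Smad4 these enter the nucleus and switch on Id genes, whose products are helix-loop-helix proteins without a DNA-binding region that tie up E proteins and so hold back basic helix-loop-helix (bHLH) factors. In the embryo, BMPs from the dorsal aorta induce nearby neural crest cells to become sympathetic neurons, and Chrdl1 is one of the secreted proteins that bind BMPs and keep them from their receptors.

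In the RefSeq gene table for GRCm38.p6, Bmp2 lies at chr2:133552159-133562896, Bmp4 at chr14:46383525-46390669 and Bmp7 at chr2:172868012-172940321. Bmpr1a lies at chr14:34411061-34503336, Bmpr2 at chr1:59764279-59878081 and Chrdl1 at chrX:143285674-143394263. Id1 lies at chr2:152736251-152737410, Id2 at chr12:25093799-25096092, Id3 at chr4:136143822-136145392 and Id4 at chr13:48261116-48266028, so the 4 Id genes are on 4 chromosomes. The promoters of 3 Id genes are shown, those with a promoter sequence at hand, and these genes varied between the tumours in different ways. RefSeq promoter windows on GRCm38.p6, each 250 bases before to 50 bases after the start site, were at hand for 6 of the 10 members. None was at hand for Bmp2, Bmp7, Id1 and Chrdl1. Capitals mark GGCGCC, a GC-rich element bound by Smad1 and Smad5, and GTCTG, a Smad4 box, searched on both strands (GGCGCC reads the same on both, and GTCTG reads CAGAC on the other). No marked matches overlap.
Id2, chr12:25096043-25096342, minus strand: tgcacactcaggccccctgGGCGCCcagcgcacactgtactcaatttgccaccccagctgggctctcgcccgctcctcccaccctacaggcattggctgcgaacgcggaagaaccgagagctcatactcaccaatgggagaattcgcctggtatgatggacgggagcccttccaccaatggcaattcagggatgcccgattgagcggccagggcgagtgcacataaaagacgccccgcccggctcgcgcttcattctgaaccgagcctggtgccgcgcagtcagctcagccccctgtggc
Id3, chr4:136143572-136143871, plus strand: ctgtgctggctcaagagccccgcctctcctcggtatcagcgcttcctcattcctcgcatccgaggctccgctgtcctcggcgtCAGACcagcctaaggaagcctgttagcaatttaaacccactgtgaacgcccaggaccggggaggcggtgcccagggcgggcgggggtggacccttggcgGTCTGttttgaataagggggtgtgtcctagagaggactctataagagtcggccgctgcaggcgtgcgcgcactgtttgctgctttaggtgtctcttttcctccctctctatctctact
Id4, chr13:48260866-48261165, plus strand: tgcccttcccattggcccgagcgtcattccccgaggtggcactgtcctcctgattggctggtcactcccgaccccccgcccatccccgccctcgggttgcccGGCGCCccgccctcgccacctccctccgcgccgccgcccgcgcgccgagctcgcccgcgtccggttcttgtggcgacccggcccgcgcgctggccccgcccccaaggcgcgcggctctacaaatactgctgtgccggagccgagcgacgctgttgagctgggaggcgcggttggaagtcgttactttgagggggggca
The Id3 window held 2 matches to GTCTG and none to GGCGCC, while Id2 and Id4 held 1 match each to GGCGCC and none to GTCTG. Of 32851 promoter windows of the same length in the table, 11.9% held GGCGCC and 49.6% held GTCTG, while of the 6 member windows 4 held GGCGCC (Id2, Id4, Bmpr1a and Bmpr2) and 1 held GTCTG (Id3). A match describes these letters only and is not evidence of binding.

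Whether the pathway is transcribed in the tumours was asked by setting each gene against the background of the same array, taken as the 95th percentile of 1418 probe sets for chemosensory receptors (olfactory, vomeronasal or bitter taste), which a tumour of this kind should hardly transcribe. This background lay between 5.45 and 5.64. Both receptors and Id2 were more than 2 log2 units above it in every tumour. Chrdl1 (by 0.87 to 5.10), Bmp7 (by 0.43 to 2.63) and Id1 (by 0.19 to 0.96) were also above it in every tumour, Id3 and Id4 were above it in most tumours, and Bmp2 and Bmp4 were not. In all, 8 of the 10 members were called detected (limma, adjusted p under 0.05 over all genes), where 57.4% of all genes were. Levels of different genes come from different probes and are not ranked against each other here. Array medians lay between 5.63 and 5.75. The label calls the tumours neuroblastoma, a tumour of the sympathetic lineage: 12 of 12 measured sympathetic neuroblast genes were detected, with Stmn2 at 12.56 ± 0.24 and Tubb3 at 12.07 ± 0.18 (mean ± SD of log2 levels, n = 8), and this list was lowest in tumour 6. Genes of other cell types were read too, with 11 of 13 endothelial, 13 of 14 fibroblast and pericyte, 13 of 14 macrophage, 7 of 12 skeletal muscle, 4 of 8 adipocyte and 2 of 7 keratinocyte genes detected, beside 9 of 9 cell cycle genes. The skeletal muscle (58.3%), adipocyte (50%) and keratinocyte (28.6%) shares were near or below the 57.4% of all genes. Those counts alone do not show that such tissue was present. Whether this RNA came from host or tumour cells was not tested. In such bulk tissue, fewer cells of a type and less RNA per cell cannot be told apart.

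**Figure D1:**
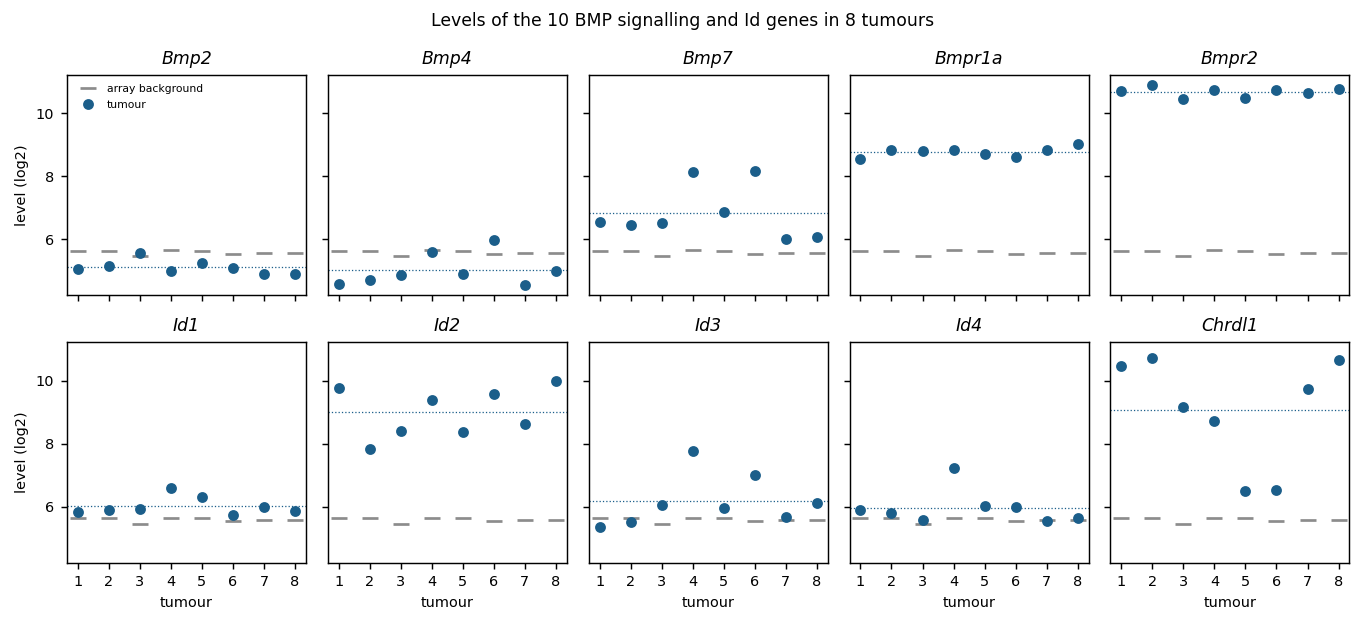
Level (log2, vertical axis) of each of the 10 genes in tumours 1 to 8 (horizontal axis), 1 point per tumour, with a dotted line at the mean and grey bars at the background of each array. Bmp7 and Id3 have their 2 highest points in tumours 4 and 6, Id4 stands out in tumour 4, Chrdl1 is lowest in tumours 5 and 6, and Bmp2 and Bmp4 lie at or below background in most tumours.

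Among the member ligands, Bmp7 was the one that was detected. Bmp7, which acts in kidney, eye and neural development, reached 8.17 (tumour 6) and 8.13 (tumour 4). It was at 6.85 in tumour 5, 6.55 in tumour 1, 6.5 in tumour 3, 6.44 in tumour 2, 6.07 in tumour 8 and 5.99 in tumour 7. Tumours 4 and 6 therefore lay more than 1 log2 unit above the other 6, which lay between 5.99 and 6.85. Over the 8 tumours it averaged 6.84 ± 0.85 (SD, n = 8), 1.26 ± 0.26 (SE) above background (limma, adjusted p = 0.00101).

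Bmp4, which with Bmp2 induces the sympathetic fate in the embryo, was at 5.96 in tumour 6 and 5.57 in tumour 4 and between 4.54 and 4.995 in the other 6. Its 2 highest tumours were the same as for Bmp7, but only in tumour 6 was it above the array background, by 0.43. Bmp4 averaged 5.01 ± 0.51, which is -0.57 relative to background (limma, adjusted p = 0.00607). Bmp2 averaged 5.10 ± 0.22 and was above background in tumour 3 alone (5.56), with a mean of -0.48 relative to background (limma, adjusted p = 0.000133). A level below this background is not evidence that a gene is silent, since the background is a high percentile of probe sets that should carry little signal.

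The other ligands were mostly at background as well, with 4 of 14 measured BMP and growth differentiation factor (GDF) genes detected. Bmp3, a family member known to oppose BMP signalling in bone, was at 9.66 in tumour 3, 9.15 in tumour 7, 8.86 in tumour 5 and 8.78 in tumour 1. It was at 8.42 in tumour 8, 8.27 in tumour 2, 7.29 in tumour 4 and 5.84 in tumour 6, so its 2 lowest tumours were those with the highest Bmp7. Gdf11, an activin-type ligand, averaged 8.76 ± 0.35, and Gdf10 averaged 5.94 ± 0.36. Single tumours held ligands that were not detected over the group. Bmp8b was at 7.43 in tumour 6 and at most 5.37 elsewhere, and Bmp6, a ligand made in endothelium and liver, was at 6.83 in tumour 4 and at most 5.54 elsewhere. These 2 ligands were chosen after their values were seen.

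Both member receptors differed little between tumours. Bmpr1a ranged from 8.55 in tumour 1 to 9.02 in tumour 8 with a median of 8.81, and Bmpr2, the type II receptor, ranged from 10.45 in tumour 3 to 10.92 in tumour 2 with a median of 10.73. They were 3.19 ± 0.07 and 5.11 ± 0.06 (SE, n = 8) above background (limma, adjusted p = 3.71e-13 and 2.14e-15). All 10 measured genes among the other receptors and co-receptors were detected. Bmpr1b, the other BMP type I receptor, was the most variable of them, at 8.51 in tumour 8 and 7.64 in tumour 3, with 7.24, 7.19 and 7.05 in tumours 7, 2 and 5. Tumours 6, 1 and 4 were lowest, at 5.82, 5.64 and 5.45, close to or below background. Rgmb, a BMP co-receptor of neurons, averaged 10.12 ± 0.44, and Tgfbr3, a co-receptor also called betaglycan, averaged 6.32 ± 0.43. The intracellular relay was detected in 14 of 15 genes, with Smad5 at 8.06 ± 0.38, Smad9 at 6.51 ± 0.36 and Skil, a repressor of Smad-driven transcription, at 6.86 ± 0.35. The exception was the inhibitory Smad6, a BMP target, at 5.21 ± 0.08 and below background in all 8 tumours.

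The Id genes did not move as one. Id1, often used as a readout of BMP signalling, was at 6.60 in tumour 4 and 6.32 in tumour 5, and between 5.73 and 6.00 in the other 6. It was above background in all 8 tumours, by 0.44 ± 0.09 (SE, n = 8) on average (limma, adjusted p = 0.000524), and lowest in tumour 6.

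Id3 reached 7.78 (tumour 4) and 7.0 (tumour 6). Lower levels followed, with 6.12 in tumour 8, 6.04 in tumour 3, 5.95 in tumour 5, 5.67 in tumour 7, 5.52 in tumour 2 and 5.36 in tumour 1. It exceeded background in 6 of 8 tumours, with a mean of 0.60 ± 0.26 (SE, n = 8) above it (limma, adjusted p = 0.0454). Leaving out tumour 3, 4, 5, 6 or 8 ended the call, at adjusted p = 0.0742, 0.0742, 0.0571, 0.115 and 0.0753 (limma), as fits of the remaining 7 tumours. The mean above background was 0.38 without tumour 4, and 0.20 without tumours 4 and 6 together (limma, adjusted p = 0.123).

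Id4, which is found in neural progenitors, was at 7.24 in tumour 4 and between 5.55 and 6.01 in the other 7. The mean was 0.38 ± 0.16 (SE, n = 8) above background (limma, adjusted p = 0.0399). Leaving out tumour 1, 5 or 6 ended the call, at adjusted p = 0.0593, 0.0676 and 0.0737 (limma). Without tumour 4, the only tumour apart from the rest, the mean was 0.20 above background (limma, adjusted p = 0.0151).

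Id2, which in other settings can be raised by Myc proteins as well as by BMPs, was at 10.01 in tumour 8, 9.78 in tumour 1, 9.59 in tumour 6 and 9.39 in tumour 4. It was at 8.64, 8.41, 8.37 and 7.84 in tumours 7, 3, 5 and 2. Tumours 4 and 6 were among the higher ones for Id2, but tumours 8 and 1 were higher still, and tumour 1 was the lowest of all for Id3. Id2 averaged 9.0 ± 0.79, which is 3.42 ± 0.25 (SE) above background (limma, adjusted p = 2.07e-07).

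Chrdl1, the secreted BMP inhibitor, was the member that differed most between tumours. It was at 10.72 in tumour 2, 10.66 in tumour 8, 10.48 in tumour 1, 9.74 in tumour 7, 9.17 in tumour 3 and 8.74 in tumour 4, but at 6.54 in tumour 6 and 6.5 in tumour 5. The last 2 tumours lay more than 2 log2 units below the others, and were still 1.0 and 0.87 above their array background. Over the 8 tumours Chrdl1 averaged 9.07 ± 1.72 (SD, n = 8), 3.49 ± 0.53 (SE) above background (limma, adjusted p = 0.000123). Of the other antagonists and extracellular modulators, 10 of 18 were detected. Grem1, a secreted antagonist made by fibroblasts among other cells, was highest in tumour 3 (7.57) and lowest in tumour 8 (5.50), Fstl1 averaged 8.41 ± 0.50 and Crim1 9.20 ± 0.29. Noggin (Nog), the best known BMP antagonist, was at 5.12 ± 0.14 and below background in all 8 tumours.

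The spread of the members was set beside that of all genes. There are no technical replicates, so the SD of the receptor probe sets, which should carry little signal, served as a yardstick, and its 99th percentile was 0.41. Of all 12731 detected genes, 14.5% had an SD above this. Of the 8 detected members, 5 did: Chrdl1 (1.72), Bmp7 (0.85), Id3 (0.82), Id2 (0.79) and Id4 (0.55), while Id1 (0.29), Bmpr1a and Bmpr2 (0.15 each) did not. Among the SDs of all detected genes, that of Chrdl1 stood at percentile 99.9, Bmp7 at 97.9, Id3 at 97.4, Id2 at 97.1 and Id4 at 92.4, whereas Bmpr2 stood at 18.8 and Bmpr1a at 17.7. Id3 and Id4 owe part of their detection to the tumours in which they were high, so a large SD in them is not a separate observation. With tumours 4 and 6 left out, the count was 2, namely Chrdl1 and Id2.

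**Figure D2:**
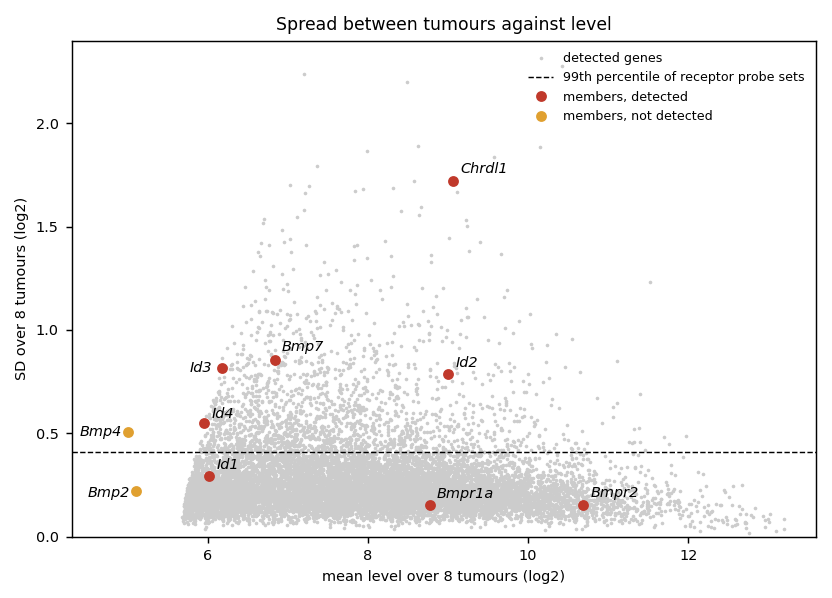
SD over the 8 tumours (log2, vertical axis) against mean level (log2, horizontal axis) for all 12731 detected genes (grey) and the 10 members (red where detected, orange where not). The dashed line at 0.41 is the 99th percentile of the SDs of receptor probe sets, with Chrdl1, Bmp7, Id3, Id2 and Id4 above it and Id1 and both receptors below it.

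Downstream of the Id genes, the factors that their products bind were read as a list. Of 11 measured bHLH genes 7 were detected, 2 of them with an SD above the yardstick. Detected genes include the E protein genes Tcf3 (9.62 ± 0.07), Tcf4 (10.96 ± 0.24) and Tcf12 (9.58 ± 0.22), which were read here because they are the direct partners of Id proteins. Hand2, a bHLH factor of sympathetic neurons that lies downstream of BMPs in the embryo, averaged 10.57 ± 0.35 and was lowest in tumours 6 (9.94) and 4 (10.20). Twist1, a mesenchymal bHLH factor, was at 7.89 and 7.88 in tumours 3 and 1 and between 5.94 and 6.59 in the other 6. Neurod1, a neuronal bHLH factor, ranged from 5.41 in tumour 3 to 7.63 in tumour 6.

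Of 11 measured genes among the other BMP-responsive transcription factors, 9 were detected, and the 3 with the largest SD are described here. Hey2, a transcriptional repressor best known as a Notch target, was at 10.15 in tumour 4 and 8.10 in tumour 6, and between 5.81 and 6.72 in the other 6, so that the same 2 tumours were highest as for Bmp7 and Id3. Gata2, a factor of the sympathetic lineage, and Tbx2, a T-box repressor, were lowest in tumour 6, at 5.45 and 6.24. In the other 7 tumours Gata2 lay between 7.27 (tumour 4) and 10.03 (tumour 8), and Tbx2 between 8.46 (tumour 4) and 9.48 (tumour 1). Sympathetic genes were also low in tumour 6 as a list, where the mean of the 12 sympathetic neuroblast genes, each centred on its own mean, was -1.65, against -0.30 to 0.84 in the other 7.

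**Figure D3:**
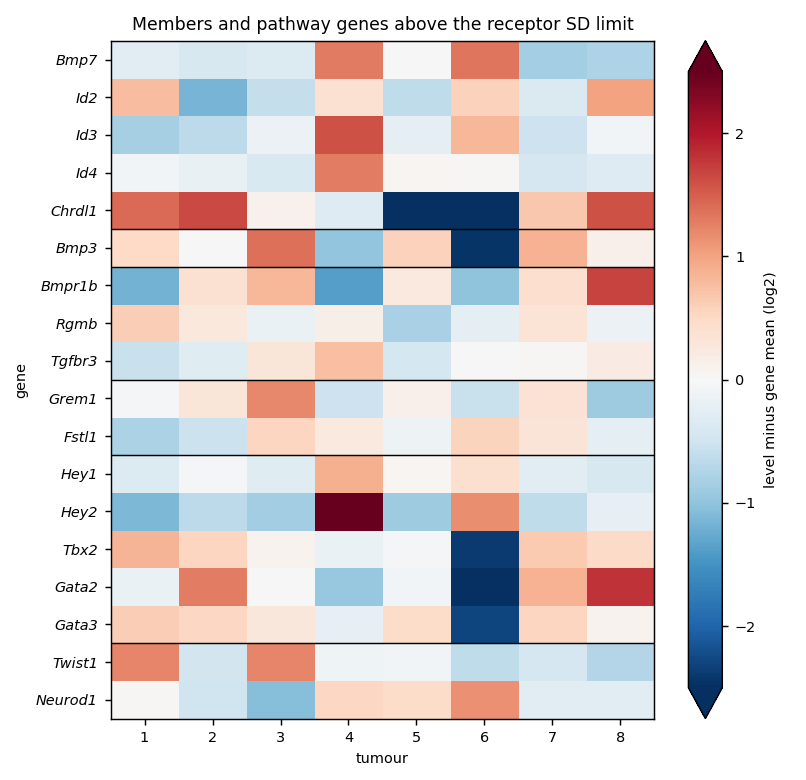
Level of each gene minus its mean over the 8 tumours (log2, colour; red is higher, blue lower, colours saturate at the ends of the bar) for the detected members and pathway genes whose SD is above the receptor yardstick of 0.41, with tumours 1 to 8 across and lines between the gene lists. Bmp7, Id3 and Hey2 are red in tumours 4 and 6, Chrdl1 is dark blue in tumours 5 and 6, and Bmp3, Gata2, Tbx2 and Gata3 are dark blue in tumour 6.

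Whether ligand, targets and inhibitor varied together was asked for the 28 pairs of detected members. No pair passed over the 8 tumours (exact permutation of Pearson's r, two-sided, Benjamini-Hochberg adjusted over the 28 pairs, lowest adjusted p = 0.165 for Bmp7 with Id4), and 3 pairs had an unadjusted p under 0.05. These were Bmp7 with Id4 (r = 0.76), Bmp7 with Id3 (r = 0.86) and Id3 with Id4 (r = 0.80). Ranked by r with Bmp7 among 12730 detected genes, Id4 stood at 799 and Id3 at 290. Ranked by r with Id3, Id4 stood at 491, so many other genes followed these members more closely. All 3 pairs involve genes that are high in tumour 4, and 2 of the pairs involve Bmp7. In Bmp7 tumours 4 and 6 form a separate cluster, so correlations are given over the other 6 tumours. There Bmp7 and Id4 had r = 0.83 and rho = 0.83 (exact permutation p = 0.05 and 0.0583, n = 6). Their SDs over these 6 tumours were 0.32 and 0.19, below the receptor yardstick of 0.45 for the same 6. Id4 was at most 0.38 above background in them, so this r is read from small differences near background. Bmp7 and Id3 had r = -0.08 and rho = -0.20 (exact permutation p = 0.842 and 0.714, n = 6), so their relation rests on tumours 4 and 6. Id3 and Id4 had r = -0.30 and rho = -0.31 (exact permutation p = 0.544 and 0.564, n = 6), and their r over 7 tumours was 0.26 without tumour 4 and 0.87 without tumour 6, so that it rests on tumour 4. Id1 and Id4 gave r = 0.79 and rho = 0.19 over the 8 tumours (exact permutation p = 0.0504 and 0.665, n = 8, adjusted p = 0.332 and 0.925), and r = -0.86 without tumours 4 and 5, the 2 farthest from the median of Id1 (exact permutation p = 0.0222, n = 6). In those 6 tumours Id1 lay only between 5.73 and 6.00, which is 0.19 to 0.48 above background. The negative r is therefore read over a narrow range near background.

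The same question was put to all genes with Id1 as the covariate of a limma fit. None of 12730 detected genes passed (0%, limma, lowest adjusted p = 0.711). At an unadjusted p under 0.05 there were 838 (6.58%). Of the 7 other detected members none passed, and 1 had an unadjusted p under 0.05 (Id4, slope 1.48 ± 0.40 SE, limma adjusted p = 0.736). Of the 54 detected pathway genes none passed, and 5 (9.26%) had an unadjusted p under 0.05. All 5 had a positive slope, where the 838 of all genes divided into 444 with a positive and 394 with a negative slope. They were Bambi, Tbx3, Fstl3, Ctdsp1 and Hey1, and are named because of these values. All 5 were highest in tumour 4, as Id1 was, so their shared sign draws on the same array. Bambi, Fstl3 and Ctdsp1 were second highest in tumour 5, as Id1 was. Tbx3 was at 6.12 there, inside the range of the rest, and Hey1 was second highest in tumour 6 (8.51), where Id1 was lowest. Bambi, a BMP-induced decoy receptor, was at 7.37 in tumour 4 and 7.23 in tumour 5, the 2 tumours with the highest Id1, and between 6.39 and 6.81 in the other 6 (slope 1.09 ± 0.24 SE, limma adjusted p = 0.711). Tumour 5 stood apart in keratinocyte genes, since all 7 measured were highest in it and their mean level was 7.20 there, against 5.11 to 5.43 in the other 7. Krt14, a keratin of basal epidermis, was at 9.13 in tumour 5 and at most 5.29 elsewhere, and Perp, a desmosome protein gene, was at 8.79 and at most 6.30 elsewhere. The part of these cells in the levels of Id1, Bambi and Chrdl1 in tumour 5 was not tested.

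With Chrdl1 as the covariate, limma called 1 of 12730 detected genes (0.00786%), and 1801 (14.1%) had an unadjusted p under 0.05. The called gene was Rbfox1, a neuronal splicing factor, with a slope of 0.29 ± 0.03 SE (adjusted p = 0.037). It was at 9.93 and 9.92 in tumours 5 and 6 and between 10.59 and 11.26 in the other 6. No member passed. Bmp7 came nearest, at a slope of -0.32 ± 0.13 SE (limma, unadjusted p = 0.0354, adjusted p = 0.326), and of the 54 pathway genes 8 (14.8%) had an unadjusted p under 0.05. The count of called genes was 0 without tumour 2, 3, 4, 6, 7 or 8 and 201 without tumour 5, 1 of the 2 tumours in which Chrdl1 is low and the one with the high keratinocyte genes.

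Markers of other cell types were set beside the members in 64 relations, each of the 8 detected members with the mean of 8 marker lists. Of these, 1 passed over the 8 tumours, and 5 had an unadjusted p under 0.05. The 1 was Id3 with the neural crest progenitor and glia list, at r = 0.981 (exact permutation of Pearson's r, two-sided, adjusted p = 0.0222 over the 64). By rank this relation had rho = 0.905 and did not pass (exact permutation, adjusted p = 0.292). In that list 6 of 10 measured genes were detected, and only these enter its mean. Id3 and the list genes Sox10 and Erbb3 were detected narrowly (limma, adjusted p = 0.0454, 0.0362 and 0.045) and were highest in tumours 4 and 6. Detection and the relation therefore draw on the same high values, and the call is not separate support. The mean of the list, each gene centred on its own mean, was 2.02 in tumour 4 and 1.16 in tumour 6, against -0.01 in tumour 8, -0.43 in tumour 7, -0.53 in tumours 3 and 5, -0.61 in tumour 2 and -1.07 in tumour 1. Since tumours 4 and 6 lie apart, the correlation is given over the other 6, where it was r = 0.80 and rho = 0.77 (exact permutation p = 0.0333 and 0.103, n = 6, lowest adjusted p over the 64 relations = 0.963). With 6 tumours there are too few pairings for a single relation among the 64 to pass after adjustment, so the lack of a call there decides nothing. The call over all tumours was lost without tumour 1, 2, 4, 5, 6 or 8, at adjusted p = 0.178, 0.102, 0.178, 0.0508, 0.121 and 0.152 (exact permutation, n = 7). With each tumour left out in turn, r lay between 0.950 (without tumour 4) and 0.989 (without tumour 3).

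Fabp7, a lipid-binding protein made by radial glia and Schwann cell precursors, was at 12.03 and 11.51 in tumours 4 and 6, and Sox10, the defining crest and glia transcription factor, was at 8.32 and 8.05 in them. Pmp22, a myelin protein gene, was at 8.66 in tumour 4, its highest level, while its 7.55 in tumour 6 lay inside the range of the other 6. Ednrb was likewise highest in tumour 4 (8.63), while its 6.77 in tumour 6 lay inside the range of the other 6. Gfap, an intermediate filament of glia, was at 10.71 in tumour 4 and at most 5.93 elsewhere. It was not detected over the group (limma, adjusted p = 0.393) and does not enter the list mean. Ngfr, also measured in this list and not detected, differed little, between 5.47 and 5.84 over the 8 tumours. Endothelial genes, another place where Id1 and Id3 are made, averaged 0.58 in tumour 4 on the same centred scale, between -0.48 and 0.22 in the other 7, with Cdh5 and Emcn at 9.44 and 9.30 in tumour 4. Id3 against the endothelial list had r = 0.83 and rho = 0.79 over the 8 tumours (exact permutation p = 0.00933 and 0.0279, adjusted p = 0.298 and 0.856) and r = 0.46 without tumours 1 and 4 (exact permutation p = 0.376, n = 6). Without tumours 4 and 6 it had r = 0.85 and rho = 0.77 (exact permutation p = 0.0458 and 0.103, n = 6, lowest adjusted p over the 64 relations = 0.963). Here too a single relation could not have passed after adjustment. The part of glial or endothelial cells in the levels of Id3, Id4 and Bmp7 was not tested. For Bmp7 and Id4, the correlation with the crest and glia list over the 6 tumours other than 4 and 6 was r = -0.55 and -0.52, with rho = -0.54 and -0.43 (exact permutation p = 0.219, 0.301, 0.297 and 0.419, n = 6).

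**Figure D4:**
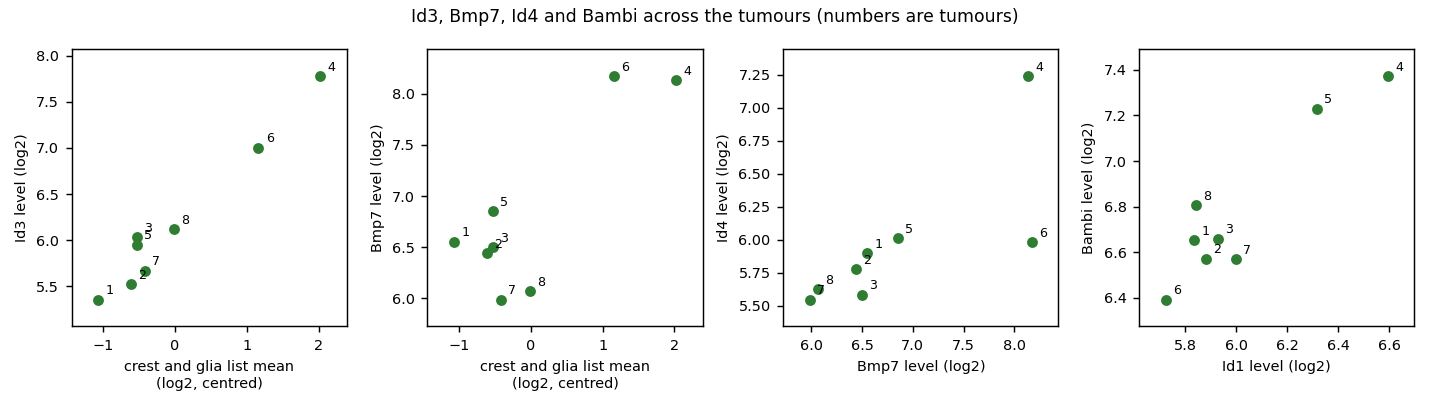
Each point is 1 tumour, numbered, with log2 levels on the vertical axes. From left to right are Id3 and Bmp7 against the centred mean of 6 crest and glia genes, Id4 against Bmp7, and Bambi against Id1. Tumours 4 and 6 lie apart in the first 2 panels, tumour 4 stands above the rest for Id4, and tumours 4 and 5 are highest for both Id1 and Bambi.

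The genes whose levels followed the 3 most variable members most closely were ranked by Pearson's r over the 8 tumours among 12730 detected genes, as a description without a test. For Chrdl1 they were Zfp786 (r = 0.977), Rbfox1 (0.975), Hipk2 (0.971), Sh2b1 (0.970) and Kifap3 (0.970). For Bmp7 they were Evc (r = 0.979), a ciliary protein of hedgehog signalling, the catalase gene Cat (0.973), Tbrg1 (0.969), Dynll1 (0.969) and Gas1 (0.969), a hedgehog co-receptor. For Id3 they were Dock1 (r = 0.996), an activator of the small GTPase Rac, Cdc42ep1 (0.983), Foxo1 (0.978), a forkhead transcription factor, Tcf7l1 (0.977), a transcription factor of the Wnt pathway, and Sh3bgrl (0.976). All these correlations share the same 8 arrays, and those for Bmp7 and Id3 share the high levels of tumours 4 and 6.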

How the data were processed

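Total RNA was measured on 8 arrays. The deposited log2 values per probe set come from the authors' own processing. The submitters' processing notes list RMA and Partek 6.5 without their roles. That the scale is log2 follows from the range of the values, and further options are not stated. Of 41345 probe sets, 23521 had 1 gene symbol, 1814 several and 16010 none in the platform annotation, and no gene was named from several. Where several probe sets carried 1 symbol, that of highest mean was used, which gave 22180 genes. Arrays carry no counts, and their number limits the precision. All tumours share 1 label, so there is no comparison between groups.

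Detection and the fits on Id1 and Chrdl1 used limma 3.58.1 in R 4.3.3 (trend and robust prior, Benjamini-Hochberg over all genes tested). They were also run on simulated data of independent genes, in which undetected genes lay well below background. That setting differs from these arrays, so the run does not settle calls near background or the fits on Id1 and Chrdl1. Relations used exact permutation of the 40320 pairings of 8 tumours, in Python 3.11.15. Named genes are the members, the 3 detected genes of largest SD in each of 6 pathway lists, the 2 of highest mean in marker lists, and the 5 genes most like each of the 3 most variable members. Genes named beside these were chosen after their values were seen. The members and lists were chosen with earlier results of these data known. Alternatives changed the probe set rule, normalization, background, prior, filter and tumours included.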

Additional observations from a re-analysis of the deposited data

Results flagged for a closer look

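Of 51 values examined over the 8 tumours (members, named pathway genes, genes most like a member, and marker list means), 3 had 1 tumour far from the rest, where chance alone gives about 1 in 20. Id4 was at 7.24 in tumour 4, with the next tumour at 6.01. Tbx2 was at 6.24 in tumour 6, with the next at 8.46. The mean of the sympathetic neuroblast genes was -1.65 in tumour 6, with the next at -0.30. Tumour 4 also had the highest crest and glia list mean (2.02) and tumour 6 the next highest (1.16). The part of these in the values was not tested.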

How the results depend on the processing

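Detection depended on the background level. With the background at the receptors' median, 20159 genes and all 10 members were detected, and Bmp2 and Bmp4 turned to 1.64 and 1.54 above it. At the 90th percentile they were 0.13 and 0.035 above it and not called. Against the 99th percentile 4 members were detected (Bmpr1a, Bmpr2, Id2 and Chrdl1), and Id1, Id3 and Id4 turned to -0.58, -0.42 and -0.64. Members detected ran from 6 to 8 with 1 tumour left out. Without tumours 4 and 6, a choice made after seeing the data, 2 members were above the receptor SD instead of 5, and r turned to -0.079 for Id3 with Bmp7, -0.30 for Id4 with Id3, and -0.55 and -0.52 for Bmp7 and Id4 with the crest and glia list. Genes called with Chrdl1 numbered 0 with no filter on low values, with arrays centred, with a plain prior and without tumours 4 and 6, and 0 to 201 with 1 tumour left out. Pairs of members past the threshold numbered 1 after a new quantile normalization (Bmp7 with Id4, adjusted p = 0.0229). Relations with marker lists past it numbered 0 by Spearman's rho, and 0 to 1 with 1 tumour left out. Without tumours 4 and 6 they numbered 0, but 6 tumours give too few pairings for a single relation to pass after adjustment. Of the values for single genes and relations under an alternative, 234 kept their direction and side of the threshold. Part of these could not have moved, so the count is not a measure of stability. Each member has 1 probe set, so averaging probe sets left its level as it was. Centring the arrays shifted gene and background alike, so levels above background stayed the same. With the sign kept, 18 lost the call and 1 gained it. A further 11 changed sign, whether or not the call changed too. Among these, Bmp2 and Bmp4 gained the call at the receptors' median, and Id1, Id3 and Id4 lost it at the 99th percentile. The causes were not tested. No paired analysis was possible because there is 1 group. Signal over background limits Id1, Id3 and Id4, which lie within 1 log2 unit of it on average.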
